A study of Rattus norvegicus with 6 samples.

Results

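The liver-enriched transcription factors Foxa1, Foxa2, Foxa3, Hnf4a, Cebpa, Cebpb and Onecut1 were read on Affymetrix RG_U34A arrays (array type and liver as the tissue per the file headers). Their probe sets were all those whose only gene symbol in the platform annotation is 1 of these 7 names, 12 of 8799 probe sets on the array, or 7 of the 4736 genes that a probe set names alone. Each probe set is a group of short probes for a transcript, and 3 of the genes (Foxa1, Foxa2 and Onecut1) have 1 each. The samples were livers of male Sprague Dawley rats fed a liquid diet enterally (total enteral nutrition) over 3 weeks. The 3 Control samples came from rats given 5% corn oil and 187 kcal daily per kg of metabolic mass. The 3 NASH samples, named for nonalcoholic steatohepatitis, came from rats given 70% corn oil at 220 kcal on the same basis, so that fat content and energy differ together. The sample titles set the groups, since the free-text descriptions all carry the wording of a Control sample. No label states that each sample is another animal, so p-values measure only how far these samples spread, and that spread may be technical.

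These factors bind DNA in front of liver genes and act together in hepatocytes. The FOXA proteins (forkhead box A, once called HNF3) open compacted chromatin so that other factors can bind, and each has tasks of its own: Foxa1 and Foxa2 act from early liver development on, and Foxa3 is the form most tied to the adult organ. Hnf4a is a nuclear receptor that keeps hepatocytes differentiated and drives apolipoprotein, clotting factor and cytochrome P450 genes. Cebpa and Cebpb are leucine zipper proteins of the C/EBP family, Cebpa for metabolic genes of the resting liver and Cebpb for the acute phase response and regeneration. Onecut1 (HNF6) is a cut-homeodomain factor of hepatocytes and bile duct cells that is known to act on the Foxa2 and Hnf4a genes.

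Start-site sequences of the factors are shown because the results below turn on Foxa2, on its difference from Foxa3, and on Onecut1, whose binding core ATCAAT can be looked for in them. RefSeq promoter sequences (build GRCr8, 250 bases before to 50 after the start) matched 5 of the 7 genes (not Foxa1 or Onecut1), with 2 starts for Hnf4a, so 6 sequences. Capitals mark matches, on either strand, to ATCAAT (Onecut), to GTTAAT (the core of an HNF1 site), to TATAAA or to CCAAT. Neighbouring or overlapping matches run together.
Foxa2, chr3:155927459-155927758, minus strand: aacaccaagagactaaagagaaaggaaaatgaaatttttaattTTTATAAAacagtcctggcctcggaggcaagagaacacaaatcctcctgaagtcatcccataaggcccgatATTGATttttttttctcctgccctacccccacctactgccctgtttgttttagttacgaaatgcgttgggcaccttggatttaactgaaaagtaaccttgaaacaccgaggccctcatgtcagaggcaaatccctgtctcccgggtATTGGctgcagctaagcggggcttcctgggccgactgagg
Foxa3, chr1:87799436-87799735, minus strand: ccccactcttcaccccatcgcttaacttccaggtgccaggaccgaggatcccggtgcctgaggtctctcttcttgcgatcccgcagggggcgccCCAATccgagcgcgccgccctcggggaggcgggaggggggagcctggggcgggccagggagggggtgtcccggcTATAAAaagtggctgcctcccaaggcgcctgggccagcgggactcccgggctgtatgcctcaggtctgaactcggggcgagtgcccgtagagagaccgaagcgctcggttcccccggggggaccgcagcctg
Hnf4a, upstream start, chr3:172605970-172606269, plus strand: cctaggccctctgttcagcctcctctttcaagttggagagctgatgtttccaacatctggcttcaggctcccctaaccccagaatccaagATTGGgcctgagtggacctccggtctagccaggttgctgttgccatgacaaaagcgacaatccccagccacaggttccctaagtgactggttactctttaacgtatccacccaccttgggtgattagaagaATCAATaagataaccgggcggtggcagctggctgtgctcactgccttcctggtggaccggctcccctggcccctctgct
Hnf4a, downstream start, chr3:172641586-172641885, plus strand: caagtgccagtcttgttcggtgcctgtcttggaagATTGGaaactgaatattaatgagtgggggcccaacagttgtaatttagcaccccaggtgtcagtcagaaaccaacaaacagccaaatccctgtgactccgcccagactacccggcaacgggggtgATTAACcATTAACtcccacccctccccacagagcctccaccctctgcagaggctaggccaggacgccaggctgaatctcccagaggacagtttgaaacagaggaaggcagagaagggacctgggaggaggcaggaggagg

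The Onecut core stood at position -136 of the Foxa2 promoter and at -29 of the upstream Hnf4a promoter, counted from the start site. It was in none of the windows of Foxa3, Cebpa, Cebpb or the downstream Hnf4a start, and 8.06% of all 33469 promoters of the same length hold it. The downstream Hnf4a promoter held the HNF1 core at -90 and again at -83, which 7.45% of promoters hold at least once. TATAAA, present in 14.2% of promoters, was at -33 in Cebpb, -35 in Cebpa and -82 in Foxa3. In Foxa2 it stood at -205, overlapping its reverse at -207. CCAAT, the core of another common promoter element, was in 37.5% of promoters and in those of Foxa2, Foxa3 and Hnf4a. No FOXA core (TGTTTAC with its variant TGTTTGC, and TATTTAC with its variant TATTTGC), HNF4 core (CAAAGTCC) or C/EBP core (TTGCNNAA) was found in the 6 windows. These cores were in 14.2%, 1.4% and 10.6% of all promoters. The FOXA forms searched for left out TGTTTGT, which differs from TGTTTGC only in its last base. TGTTTGT stands in the Foxa2 window and, on the other strand, in the downstream Hnf4a window. The search therefore does not show that the windows lack FOXA sites.

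Between the arrays, trimmed mean signals (2% trimmed) lay between 73.6 and 117, so the arrays were brought to a common distribution before the comparison. NASH 2 carried the most transcripts of fat and muscle. The summed normalized signal of 10 adipose markers was 514 to 522 in the Control arrays, and 587, 4362 and 684 in NASH 1, 2 and 3, so every NASH array lay above every Control array. Outside NASH 2 the largest part of that sum was Lep (244 to 307). Normalized Fabp4 was 1.51 in NASH 1 and 1.76 in NASH 3, within the Control range of 1.08 to 3.22. Cidea was 76.7 and 77.8 in these 2 arrays, above the 18.0 to 44.8 of Control. The summed signal of 9 skeletal muscle markers was 2638 in NASH 2 and 100.4 to 150.0 in the other arrays of both diets. The adipose markers Pparg, Fabp4 and Plin1 and the muscle markers Pvalb and Tnni2 were too dim on average over the arrays for the test. Each was highest in NASH 2, where Fabp4 had a deposited signal of 1044 against 0.80 to 4.47 elsewhere. In Control 2 the clock-driven factor Dbp, a liver-enriched PAR leucine zipper protein, had a deposited signal of 126.6 against 4.33 to 10.1 elsewhere, and the serine dehydratase Sds 1691 against 10.6 to 93.4. Control 3 had a ratio of 3' to 5' actin signal of 5.07, with 2.15 to 2.93 in the others. Of 16 hepatocyte markers, all above the filter, 8 had higher and 8 lower means in NASH, with a median difference of -0.023. Limma called 0 of them. Under an unadjusted limma p of 0.05 were 4 of the 16 (against 7.86% of all probe sets tested), all lower in NASH. These were Asgr1 (-0.93), F10 (-0.80), Otc (-0.70) and Ambp (-0.27). Asgr1, F10 and Ambp did not overlap between the diets, as 14.3% of all probe sets tested did not, but F10 and Ambp overlapped in the deposited signals. The summed signal of the 16 was 50565 to 53588 in Control and 49997 to 52056 in NASH. It is carried by transcripts at the top of the array, which quantile normalization holds nearly fixed. Bile duct markers, 7 of 9 above the filter (Spp1 and Ggt1 below), summed to 809 to 1080 in Control and 947 to 1078 in NASH. Most of that sum was Krt18 (445 to 773) and Krt8 (171 to 266), so it says little of the dimmer markers. Of the 7, 4 had higher and 3 lower means in NASH, with Krt19 at -0.51 and Aqp1 at 0.97. Leukocyte markers, 10 of 14 above the filter (Cd3g, Cd8a, Cd3d and Cd2 below), summed to 510 to 599 in Control and 522 to 887 in NASH. Their mean centred log2 level was -0.24 to -0.19 in Control and -0.048 to 0.59 in NASH, without overlap, and 9 of the 10 had higher means in NASH. Pancreas markers, 5 of 9 above it (Cel, Cpa1, Prss1 and Gcg below), summed to 684 to 808 in Control and 646 to 658 in NASH, also without overlap. Most of that sum was Amy2a3 (229 to 425) and Ins2 (140 to 251), so it too says little of the dimmer markers. Of the 5, 1 had a higher and 4 had lower means in NASH. The part of these adipose, leukocyte, pancreas and hepatocyte markers in the differences of Foxa2 and Onecut1 was not tested. In whole liver, fewer cells of a type and less RNA per cell cannot be told apart.

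**Figure D1:**
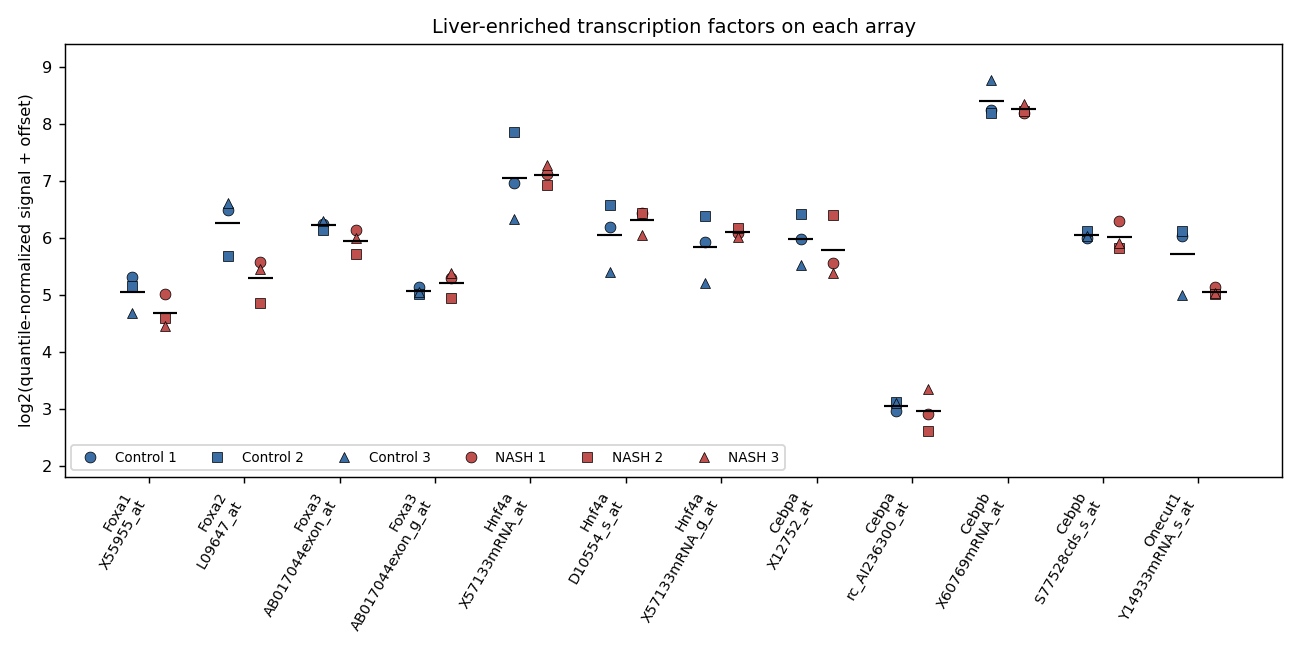
Level of each of the 12 probe sets on each array, as log2 of the quantile-normalized signal plus an offset. Points are arrays (blue Control, red NASH, shape by replicate number) and lines are group means over 3 arrays. Foxa2 has 5.67 to 6.61 in Control and 4.85 to 5.57 in NASH, and every other probe set overlaps between the diets.

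The question put to these genes was whether the factors that define the hepatocyte differed in this diet model of steatohepatitis. No member passed the test. Of 11 member probe sets that passed the filter on dim signals, limma called 0 at a Benjamini-Hochberg adjusted p under 0.05 over all 5244 probe sets tested, where 0.133% were called (0.0953% higher and 0.0381% lower in NASH). Foxa2 alone was under an unadjusted p of 0.05, as 7.86% of all probe sets tested were (4.04% with lower values in NASH). Groups did not overlap for 1 of the 11 (9.09%), again Foxa2, against 14.3% of all probe sets tested (7.76% lower and 6.54% higher in NASH). Of all 12 member probe sets, including the Cebpa probe set below the filter, 8 had lower means in NASH, beside 52.9% of all probe sets tested. Taking only the brightest probe set per gene, 6 of the 7 genes had lower means in NASH. Their median difference was -0.27 on the log2 scale, beside a median of -0.02 over all probe sets tested. The exception was Hnf4a. Without scaling between arrays it lay below 0 too, but the median of all probe sets tested was then -0.17, and Hnf4a stood 0.10 above it.

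Foxa2 had the largest difference of the members. Its deposited signals were 103 in Control 1, 50.9 in Control 2 and 94.8 in Control 3, and 47.5, 28.4 and 30.6 in NASH 1, 2 and 3. On the normalized log2 scale these were 6.49, 5.67 and 6.61 in Control against 5.57, 4.85 and 5.45 in NASH. All NASH values lay below all Control values, but Control 2 was only 0.11 above NASH 1. The mean was 6.26 ± 0.51 (SD, n = 3) in Control and 5.29 ± 0.39 in NASH. The difference was -0.97 ± 0.31 (standard error), with a 95% interval of -1.70 to -0.24, or 1.96-fold lower in NASH. It did not pass the threshold (limma adjusted p = 0.503), and 157 probe sets had smaller p-values, its rank being 158. Foxa2 was lowest in NASH 2, which carried the fat and muscle transcripts, and the difference was -0.76 without that array. Leaving out Control 2 gave -1.29. In the instrument records the wash entry is filled for 4 arrays (Control 1, Control 3, NASH 1 and NASH 2), which differed by -1.34, and blank for the other two, NASH 3 and Control 2, which differed by -0.22. What part the fat and muscle transcripts have in the difference was not tested.

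Foxa1, the closest relative of Foxa2, had log2 values of 5.31, 5.16 and 4.67 in Control 1 to 3 and 5.02, 4.59 and 4.45 in NASH 1 to 3. The groups overlapped, since Control 3 lay below NASH 1. The difference was -0.36 ± 0.27 (limma adjusted p = 0.738, 95% interval -0.98 to 0.26). It was -0.23 without Control 1 and -0.24 without NASH 3. Foxa3, read by 2 probe sets from the same exon record, gave differences of opposite sign. AB017044exon_at had 6.13 to 6.29 in Control and 5.71 to 6.14 in NASH, with a difference of -0.27 ± 0.20 (limma adjusted p = 0.737) that was -0.15 without NASH 2. AB017044exon_g_at had 5.02 to 5.14 in Control and 4.95 to 5.38 in NASH, a difference of 0.14 ± 0.21 that was -0.00053 without scaling between arrays. The direction of Foxa3 therefore depends on the probe set.

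Onecut1 came next after Foxa2 in size. Its deposited signals were 72.9, 68.3 and 27.8 in Control 1 to 3 and 34.6, 32.0 and 22.1 in NASH 1 to 3. On the log2 scale Control 1 and Control 2 stood at 6.03 and 6.11, while Control 3 at 5.00 lay with the NASH values (5.13, 5.01 and 5.02). The SD was 0.62 in Control and 0.062 in NASH (n = 3 each). The difference was -0.66 ± 0.31, with a 95% interval of -1.38 to 0.059 (limma adjusted p = 0.619). Without Control 3, the array with the high actin ratio, it was -0.9996, still not past the threshold (limma adjusted p = 0.222). Whether the actin ratio of Control 3 plays a part was not tested. Both wash record classes gave negative differences, -0.44 in the filled and -1.09 in the blank.

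Hnf4a, read by 3 probe sets, had the widest spread among Control arrays. The brightest, X57133mRNA_at, had log2 values of 6.95, 7.86 and 6.33 in Control 1 to 3 and 7.13, 6.92 and 7.27 in NASH 1 to 3. Control 2 was highest and Control 3 lowest, and the NASH arrays lay between them. The other probe sets repeated that order: D10554_s_at ran from 5.39 in Control 3 to 6.57 in Control 2, and X57133mRNA_g_at from 5.20 to 6.39 in the same arrays, with NASH at 6.05 to 6.43 and 6.01 to 6.18. Differences were 0.055 ± 0.37, 0.26 ± 0.31 and 0.25 ± 0.30 (limma adjusted p from 0.848 to 0.979). The 95% interval of the brightest, -0.80 to 0.91, leaves room for a difference of either sign. Without Control 3 all 3 were below 0, at -0.30, -0.074 and -0.067. With all arrays but no scaling between them X57133mRNA_at was -0.069, which was 0.10 above the median of all probe sets tested in that setting. For X57133mRNA_at the difference was 0.38 in the filled wash record class and -0.59 in the blank.

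**Figure D2:**
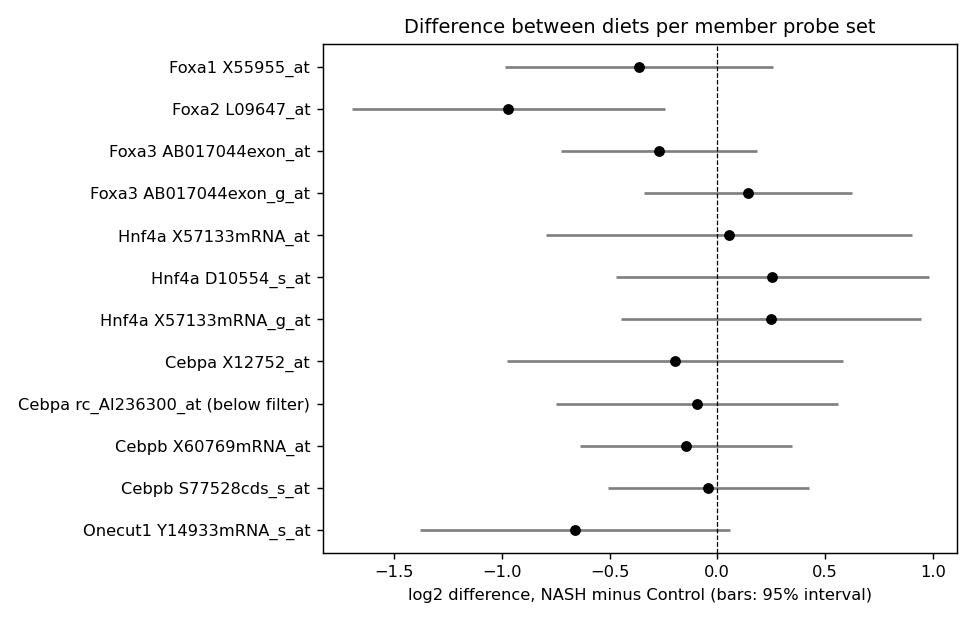
Difference between NASH and Control means (log2, NASH minus Control) for each of the 12 probe sets, with 95% intervals from limma. The interval of Foxa2 lies below 0, from -1.70 to -0.24, before any adjustment for the number of probe sets, and all others include 0.

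The C/EBP factors differed less than Foxa2, Onecut1, Foxa1 and the brighter Foxa3 probe set. Cebpa (X12752_at) had log2 values of 5.98, 6.42 and 5.52 in Control 1 to 3 and 5.55, 6.40 and 5.38 in NASH 1 to 3. Control 2 and NASH 2 shared the high level, and the groups overlapped. The difference was -0.20 ± 0.34 (limma adjusted p = 0.900). It was -0.51 without NASH 2 and 0.028 without Control 2, so its sign rests on 1 array. The other Cebpa probe set, rc_AI236300_at, was below the filter (2.61 to 3.35 over the 6 arrays) and was not tested. Cebpb had a difference of -0.15 ± 0.21 with X60769mRNA_at (8.19 to 8.77 in Control, 8.19 to 8.35 in NASH, limma adjusted p = 0.882) and -0.042 ± 0.20 with S77528cds_s_at. Control 3 was highest for X60769mRNA_at, and without it the difference was 0.038. The 95% interval of that probe set was -0.64 to 0.35, from the spread of these samples alone.

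**Figure D3:**
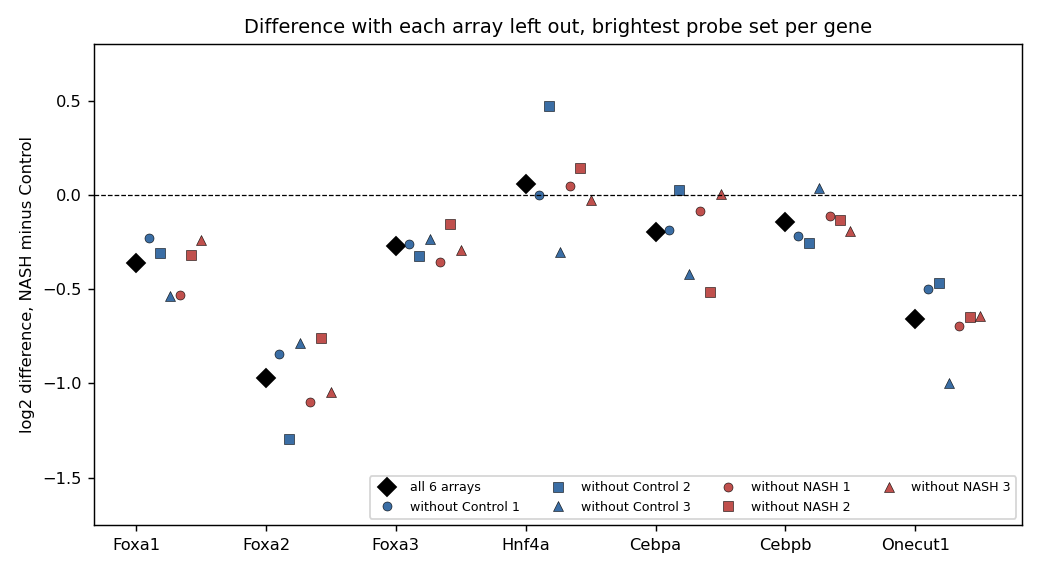
Difference between diets (log2, NASH minus Control) for the brightest probe set of each gene, with all 6 arrays (diamonds) and with each array left out (coloured points). Foxa2 stays between -1.29 and -0.76 and Onecut1 between -0.9996 and -0.47, while Hnf4a, Cebpa and Cebpb lie on both sides of 0.

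Differences between members within an array were compared for 6 pairs, on the normalized log2 scale. Foxa2 minus Foxa3 was 0.26, -0.46 and 0.32 in Control 1 to 3 and -0.57, -0.87 and -0.55 in NASH 1 to 3, with no overlap. The change in this within-array difference was -0.70, with the smallest p that 3 against 3 allow (exact permutation test, two-sided, p = 0.1, adjusted over the 6 pairs 0.6). It lay between -0.97 (without Control 2) and -0.55 (without Control 3) with 1 array left out. Foxa2 minus Hnf4a changed by -1.03, from -0.79 ± 1.26 to -1.82 ± 0.26 (SD, n = 3 each), but the groups overlapped and the exact permutation p was 0.4. It was -0.48 without Control 3 and -1.76 without Control 2. Foxa1 minus Foxa2 differed by 0.61 (exact permutation p = 0.3), 0.25 without Control 3 and 0.98 without Control 2. Foxa2 minus Onecut1 differed by -0.31 (exact permutation p = 0.7), Foxa1 minus Foxa3 by -0.092 (p = 0.6 by the same exact test) and Cebpa minus Cebpb by -0.051 (exact p = 0.9).

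**Figure D4:**
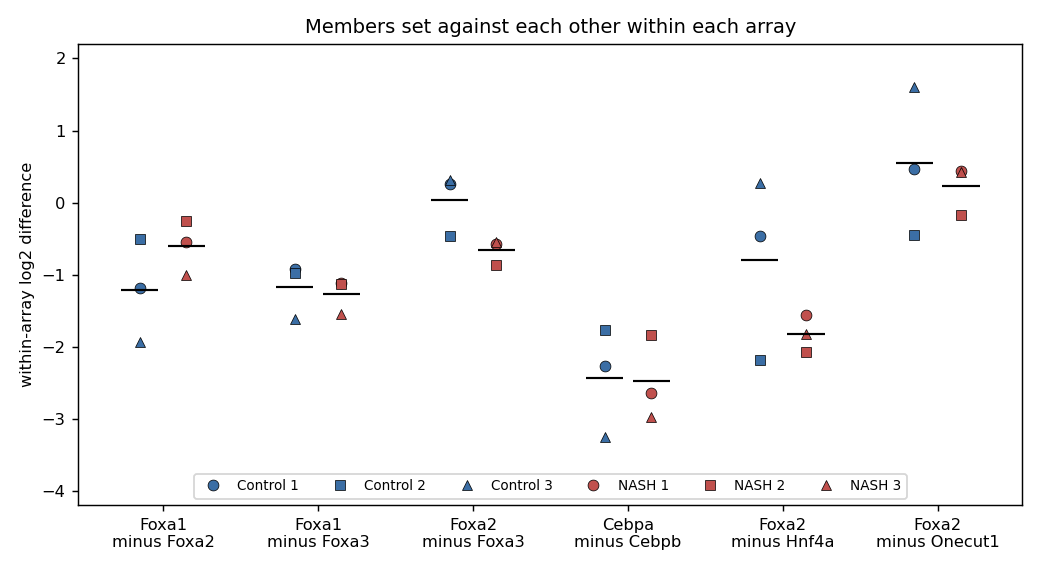
Within-array log2 difference between the brightest probe sets of 6 pairs of members, by array (blue Control, red NASH, shape by replicate number), with group means over 3 arrays as lines. Foxa2 minus Foxa3 is the pair whose groups do not overlap, with -0.46 to 0.32 in Control and -0.87 to -0.55 in NASH.

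Other transcription factors of liver were then read from a list of 36 names, 23 of them on the array and 19 above the filter. None passed the test (0 of 19 by limma). Under an unadjusted limma p of 0.05 were 2 of 19, 1 higher and 1 lower, against 7.86% of all probe sets tested. Lower means stood in 13 of 19 (68.4%, against 52.9%), and the median difference was -0.16. With the brightest probe set of each, groups did not overlap for 3 of 19 (15.8%, against 14.3% of all probe sets tested), all lower in NASH. Nr3c1, the glucocorticoid receptor, had deposited signals of 93.2, 98.2 and 89.7 in Control and 64.3, 63.1 and 45.0 in NASH, without overlap, and a difference of -0.54 ± 0.19 (limma adjusted p = 0.544). Nfib, a nuclear factor I protein, differed by -0.41 ± 0.18 with its brightest probe set, also without overlap, and by -0.15 to -0.067 with its 3 other tested probe sets, all with overlap. Rxra, the retinoid X receptor partner of the lipid-sensing receptors, differed by 0.54 ± 0.23, with overlap. The PAR leucine zipper factor Hlf had tested probe sets of opposite sign: S79817mRNA_at differed by 0.57 ± 0.26 with overlap and S79820_at by -0.83 ± 0.39 without it, so its direction depends on the probe set (limma adjusted p = 0.619 for Rxra, for both Hlf probe sets and for the brightest of Nfib). Further C/EBP factors above the filter were the acute phase regulator Cebpd, at -0.26 ± 0.35 with its brightest probe set, and Cebpg, at 0.46 ± 0.39, both with overlap. Dbp, Cebpe, Nr5a2 and Nfic were below the filter.

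Target genes known from textbooks were read for each family, from lists that share members. Of 16 FOXA targets measured, limma called 1, Igfbp1, which encodes a protein that binds insulin-like growth factors and is repressed by insulin. Its deposited signals were 105, 118 and 116 in Control and 36.0, 29.8 and 22.2 in NASH. It fell by 1.76 on the log2 scale (standard error 0.21, limma adjusted p = 0.0342), a call that was lost when any 1 of the 6 arrays was left out (differences -1.88 to -1.69). The other 15 did not pass, 8 of the 16 were lower and 8 higher, and the median was -0.011. Among them the fetal albumin relative Afp differed by -0.69, the gluconeogenic enzyme Pck1 by 1.12 and Cpt1a, the mitochondrial entry step for fatty acids, by 0.90 (limma adjusted p = 0.619 each). Pck1 was 1195 in Control 2 against 327 and 336 in the other Control arrays, and its difference was 1.83 without that array and 0.68 without Control 1. That of Cpt1a was 1.40 without Control 2 and 0.58 without Control 3.

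None of 21 Hnf4a targets passed (0 by limma), and the median was -0.011. Under an unadjusted limma p of 0.05 were 9 of the 21, 2 higher and 7 lower, against 7.86% of all probe sets tested. Groups did not overlap for 10 of them (47.6%, against 14.3% of all probe sets tested), 3 higher and 7 lower. The intestinal and hepatic apolipoprotein Apoa4 had deposited signals of 783, 556 and 718 in Control and 242, 165 and 54.4 in NASH, and a difference of -2.23 ± 0.37 (limma adjusted p = 0.101, and 0.0390 with no scaling between arrays). The liver pyruvate kinase Pklr differed by -1.84 ± 0.38 and the cytochromes P450 Cyp3a9 and Cyp3a2 by 1.29 ± 0.26 and 0.54 ± 0.17 (limma adjusted p = 0.208, 0.198 and 0.503). Of the 10, F10, Ambp, Ass1, Apoe and Apoc3 did overlap in the deposited signals, while Apoa4, Pklr, Cyp3a9, Cyp3a2 and Cyp2c11 did not. The 14.3% is the share for normalized values.

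C/EBP targets numbered 17 above the filter, with 11 higher, 6 lower and a median of 0.050. Igfbp1, which is also on this list, was the only call. Fabp1, the fatty acid binding protein of hepatocytes, differed by 0.26 and Slc2a2, the liver glucose transporter, by -0.58 (limma adjusted p = 0.619 each), the latter with overlap. Without Control 2 they were 0.14 and -0.33. Acute phase genes, classical Cebpb targets, were 12 higher and 10 lower among 22, with 0 called by limma and a median of 0.050. Under an unadjusted limma p of 0.05 were 9 of the 22, 4 higher and 5 lower, against 7.86% of all probe sets tested. Groups did not overlap for 7 of the 22 (31.8%, against 14.3% of all probe sets tested), 4 higher and 3 lower. The protease inhibitor A2m had a difference of -0.83 ± 0.19 and the acid glycoprotein Orm1 one of 0.88 ± 0.26, without overlap in either (limma adjusted p = 0.309 and 0.452). Agt, angiotensinogen, differed by -0.85 with overlap, and Fga, a fibrinogen chain, by 0.27. Of the 7, Fga, Apcs, C3 and Il1b did overlap in the deposited signals, while A2m, Orm1 and Il6r did not. Orm1 was 0.60 without Control 2 and 1.17 without Control 3.

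**Figure D5:**
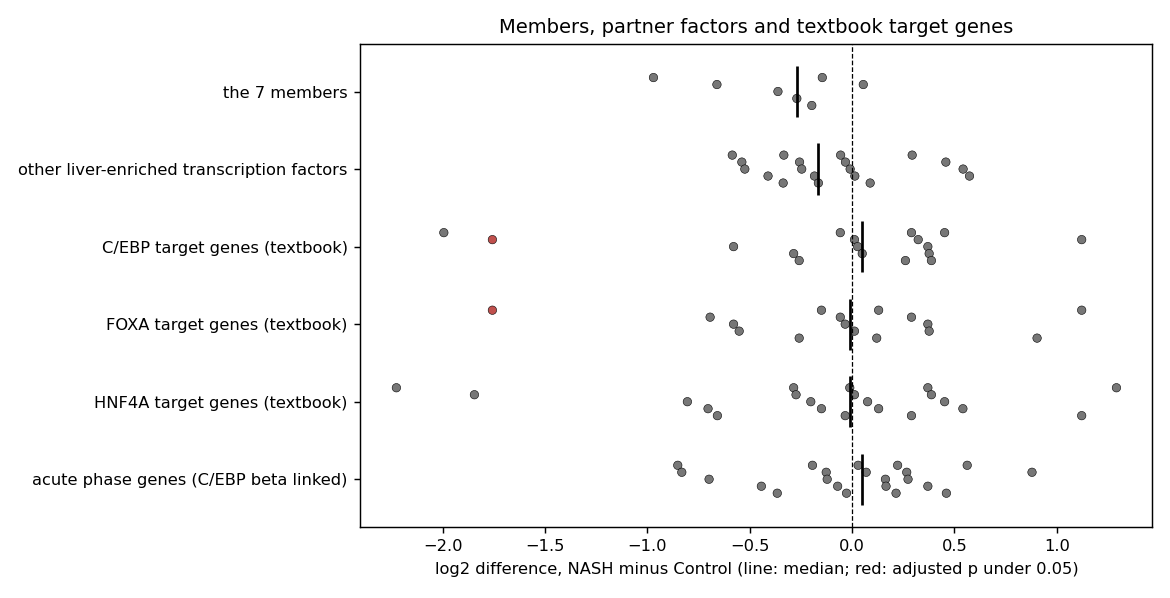
Difference between diets (log2, NASH minus Control) for the 7 members and for the genes of 5 lists, 1 point per gene (its brightest probe set above the filter), with the median as a line. Red marks the gene called by limma, Igfbp1, which stands on 2 lists, and the medians lie between -0.27 for the members and 0.050.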

How the data were processed

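The deposited values are linear MAS5 signal intensities, with 1 value for each probe set on each array (MAS5 per the submitters' processing notes). Its version and settings were not given in the sources used here. Deposited instrument records, which give array type, tissue and wash entries per the file headers, served as labels of possible batches. The number of arrays, 3 per group, limits the precision. Arrays were quantile normalized, 2.21 was added (the 10th percentile of deposited values) and log2 taken, so folds of dim probe sets are understated. After 59 array controls were left out, probe sets with a mean log2 above the 40th percentile (3.94) were tested, 5244 of 8740. Annotation gave 1 symbol for 7006 probe sets, several for 308 and none for 1426. Groups were compared with limma 3.58.1 (R 4.3.3; lmFit, eBayes with trend; degrees of freedom 4 residual, 3.90 prior), called at a Benjamini-Hochberg adjusted p under 0.05, a procedure tested on simulated data. Named were all member probe sets, up to 4 genes per list with the smallest p, genes of arrays that stood apart, and the 2 genes nearest each member. Cebpd, Cebpg, the cell type markers other than Fabp4 and the list genes beyond 4 per list were named after their values were seen. A planned comparison of the member proteins was not made here. Members, lists and tests were chosen with earlier results of these data known. No label says that replicate numbers pair the samples. Correlations of deviations were -0.021 to 0.073 for equal numbers and -0.13 to 0.084 for unequal ones, too few to decide it.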

Additional observations from a re-analysis of the deposited data

How the results depend on the processing

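Over 18 alternative settings no member probe set was called, and Foxa1, Foxa2, Onecut1 and the brighter Foxa3 probe set stayed below 0 in each. Foxa2 ranged from -1.37 (filled wash record only) to -0.76 (without NASH 2), with a lowest limma adjusted p of 0.1999, with array weights. With no scaling between arrays the median of all probe sets tested moved from -0.02 to -0.17 (68.8% lower instead of 52.9%), and Foxa2 minus that median was -0.98, against -0.95 after quantile normalization. That setting called 14 probe sets, 8 higher and 6 lower, beside 5 and 2 in the main test. It gave -0.069 for Hnf4a X57133mRNA_at, -0.00053 for Foxa3 AB017044exon_g_at, and list medians of -0.22 (FOXA targets), -0.24 (Hnf4a targets, 1 called) and -0.17 (acute phase).

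Counts of probe sets called were 0 with no filter (633 at an unadjusted p under 0.05), 3 without the intensity trend, 18 with array weights, 3 with the wash record as a block, 1 on filled wash records only, and 16 when Control 2 and NASH 2 were both left out. Leaving out 1 array gave 0 without Control 1, Control 3 or NASH 3 (266 to 511 by limma at an unadjusted p under 0.05), 1 without Control 2 or NASH 1, and 17 without NASH 2. With the replicate number as a block 1 was called, and Foxa2 had an adjusted p of 0.348. No label says that these numbers pair the samples. Of the FOXA and C/EBP targets, 0 were called with no filter, without the trend, with the replicate block, with the wash block, without both arrays, on filled wash records only and with any array left out. The median of the other transcription factors was 0.064 without both arrays and 0.10 on filled wash records, and that of Hnf4a targets ran from -0.14 to 0.047 with 1 array left out.

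Signs turned as follows. Cebpa X12752_at was 0.23 on filled wash records and -0.51 to 0.028 with 1 array left out. The dim rc_AI236300_at was 0.0021 with array weights, 0.11 without both arrays and -0.29 to 0.074 with 1 left out. Cebpb S77528cds_s_at was 0.10 without both arrays, 0.046 on filled wash records and -0.18 to 0.056 with 1 left out, and X60769mRNA_at -0.26 to 0.038. Hnf4a gave -0.30 to 0.47 (X57133mRNA_at), -0.074 to 0.53 (D10554_s_at) and -0.067 to 0.53 (X57133mRNA_g_at). Left out 1 at a time, a choice made after seeing the data for the pairs, the arrays gave -0.46 to 0.28 for Cebpa minus Cebpb, -0.31 to 0.050 for Foxa1 minus Foxa3 and -0.83 to 0.21 for Foxa2 minus Onecut1. The causes were not tested.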

Other observations

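Genes whose log2 profiles, centred on their means, lay nearest those of the members over the 6 arrays were listed among 3139 other named genes, as a description of these arrays. For Foxa2 they were Anapc16, a subunit of the anaphase-promoting complex, and the cytokine Mif, with root mean square differences of 0.198 and 0.201 (median over all genes 0.637). For Onecut1 they were Igfbp3, a binding protein of insulin-like growth factors (0.114), and the phosphodiesterase Pde3b (0.148), against a median of 0.543. For Hnf4a they were the receptors Vipr1 (0.103) and P2rx7 (0.117), against 0.522. The others were Srsf11 and Pld2 for Foxa1, Alas2 and Dtd2 for Foxa3, Npy and Slx9 for Cebpa, and Maea and Rmdn3 for Cebpb, at 0.0444 to 0.139. None of the 14 passed the test of the diets.

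The arrays differed in how often they held the extreme value of a member. NASH 2 was lowest of the 6 for 5 of the 12 probe sets and Control 3 for 4, while over all probe sets tested they were lowest for 20.3% and 21.5%. Control 2 was highest for 5 of the 12 and for 23.9% of all probe sets tested. These counts include the 3 Hnf4a probe sets, all lowest in Control 3 and highest in Control 2. With the brightest probe set per gene, NASH 2, NASH 3 and Control 3 were each lowest for 2 of the 7 genes. Control 2 and Control 3 were each highest for 3 of the 7.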
